A study of Homo sapiens with 24 samples.

Results

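The genes examined here were those that write, maintain and remove DNA methylation, namely the DNA methyltransferases DNMT1, DNMT3A and DNMT3B, the hemimethylated DNA reader UHRF1, the dioxygenases TET1, TET2 and TET3, and the thymine DNA glycosylase TDG. All probes carrying the name of one of these 8 genes were taken from 24 two-colour expression arrays, which gave 19 probes of 57355 in the series. Of these, 15 probes of 7 genes were bright enough to be tested, among 23423 probes of 17777 genes tested in all.

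The series profiled 7 human cancer cell lines after anti-tumor treatments, and each array set Cy5-labelled RNA of treated cells against Cy3-labelled RNA of control cells of the same line. Genistein, a soy isoflavone, was given to the prostate cancer lines PC3 and DU145, with controls that the labels call untreated and the study's text calls vehicle treated. The miRNA miR-29a was transfected into the head and neck squamous carcinoma line SAS on 1 array, against control miRNA. The other 21 arrays held miR-145 (PC3, DU145 and the prostate cancer line LNCap), miR-143 (PC3, DU145), miR-23b and miR-24 (PC3), miR-27b (PC3 and the renal cancer lines A498 and 786O) and miR-375 (the squamous line FaDu), all against control miRNA, siRNAs to CAV2 (A498, 786O), LAMB3 (FaDu, SAS) and GOLM1 (PC3, DU145) against control siRNA, the flavone wogonin (SAS, FaDu) against DMSO, and the chemokine CXCL10 for 12 h and 24 h (786O) against untreated cells. Times of the other treatments were not given in the labels. For genistein, the study's methods do state a dose and a course of several days with daily renewal.

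DNA methylation in mammals is written on cytosines of CpG pairs by DNMT3A and DNMT3B and copied onto the new strand after replication by DNMT1, which UHRF1 brings to hemimethylated sites. TET enzymes oxidise the methyl group stepwise, and TDG cuts out the most oxidised forms so that base excision repair restores an unmodified cytosine. Members of the miR-29 family are known for binding transcripts of DNMT3A, DNMT3B, TET genes and TDG, and genistein has long been studied as a compound that affects methyltransferases.

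The transfected miRNAs are shown first, since the seed (bases 2 to 8, in capitals) is the part that pairs with target transcripts. The labels name no arm, so both arms of miR-29a are given. For the other miRNAs on whose arrays a member moved most, only the 3p arm is given, a choice the labels do not settle. The sequences are those of RefSeq.
hsa-miR-29a-3p: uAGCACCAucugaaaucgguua
hsa-miR-29a-5p: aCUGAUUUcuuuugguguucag
hsa-miR-27b-3p: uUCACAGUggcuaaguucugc
hsa-miR-23b-3p: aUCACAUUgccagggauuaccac
hsa-miR-375-3p: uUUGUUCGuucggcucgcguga
No seed was shared between these 5. The complement of the miR-29a-3p seed, TGGTGCT, occurred in the 60 bases of 160 of 23423 tested probes (0.683%), and in 0 of the 19 probes of the members, which says only that these letters are not in those windows. On the miR-29a array the median log2 ratio was -0.08 over the 160 probes and 0.06 over the others, a difference of -0.14. The same difference lay between 0.00 and 0.22 on the other 23 arrays, so the miR-29a array was the lowest of all. For miR-29a-5p the difference was -0.07, inside the -0.15 to 0.07 of the other 23 arrays.

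The arrays fell on 3 slides with 2 versions of the array design, and 53.2% to 67.6% of spots were well above background in the control channel. The 3 siRNA targets were lower than control on each of their own 6 arrays, with log2 ratios of -3.80 and -3.20 for CAV2, -2.50 and -0.89 for LAMB3 and -4.15 and -3.02 for GOLM1. Markers followed the line names in part. KRT5 was well above background in all FaDu and SAS controls, and PAX2 in all A498 and 786O controls and in no other line. For KRT5 the other lines are not given here. KRT14, also listed as a squamous marker, passed the filter of 12 arrays, more than FaDu and SAS had together. It was thus well above background in at least 1 channel in other lines too. Not all listed markers are reported here. HOXB13, a prostate marker, was well above background in LNCap and all 7 PC3 controls but in 0 of 4 DU145 controls, and KLK3 stood at 2.36 in LNCap but at a mean of -5.26 in PC3 and -4.79 in DU145 (log2 level relative to the array's 75th percentile). No treatment and line was arrayed more than once. The spread behind each p against own control was thus that between different lines given the same treatment, pooled over treatments. Behind a p against the other treatments it was mainly the spread among arrays of those treatments. For control levels it was the spread among control RNAs of the same line. A treatment with 1 array was assumed to vary like the rest. Fewer cells expressing a gene and less RNA per cell cannot be told apart in such bulk RNA.

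TET2 and TDG fell on the miR-29a array, and the other 5 tested members did not pass. TET2 was at a log2 ratio of -2.36 ± 0.31 (SE; limma, adjusted p = 0.00297) and TDG at -1.11 ± 0.22 (adjusted p = 0.0238). Thus 2 of 7 members were lower and 0 higher, where 1.16% of all tested probes were lower and 0.841% higher at an adjusted p under 0.05. Of these calls over all probes, 57.9% were lower, and 68.9% with normexp background correction and loess. The median of the 7 members was -0.39, and that of all genes tested was 0.05. By size, 3 members (TET2, TDG and DNMT3B) lay below -0.5, as did 11.8% of the probes measured on that array, and 2 (UHRF1 and DNMT1) lay above 0.5, as did 18.1%.

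**Figure D1:**
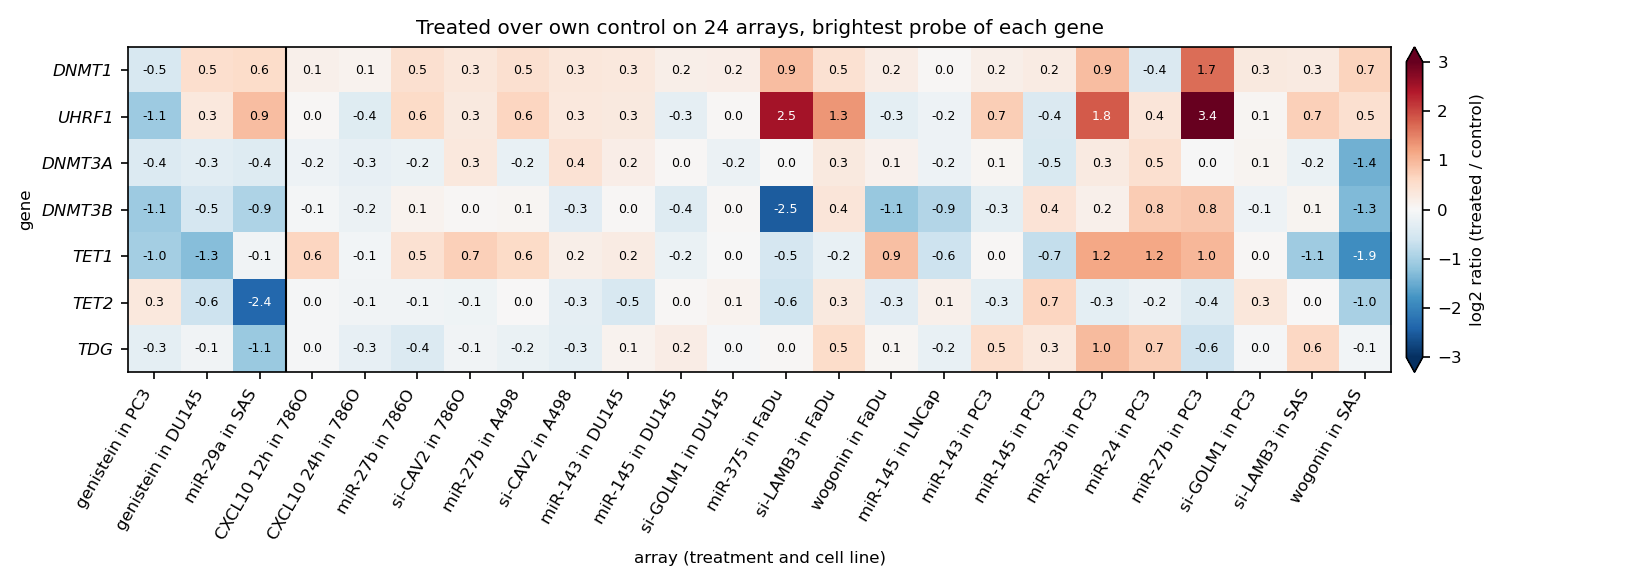
Log2 ratio of treated over own control for the brightest probe of each of the 7 tested genes (rows) on the 24 arrays (columns), with the genistein and miR-29a arrays left of the line; red is higher and blue lower than control, and the colours saturate at 3. TET2 and TDG have their lowest values on the miR-29a array, -2.36 and -1.11, while UHRF1 is highest on miR-27b in PC3, at 3.43.

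TET2 oxidises methylcytosine, and unlike TET1 and TET3 it lacks a DNA-binding CXXC domain of its own. Its brightest probe lies at chr4:106200570-106200629 (hg19, plus strand). Over the 21 arrays of other treatments this probe had a lowest log2 ratio of -0.98 (wogonin in SAS), a median of -0.11 and a highest of 0.66 (miR-145 in PC3). The miR-29a value of -2.36 lay below all of them, including the other SAS arrays, where si-LAMB3 gave 0.02. In signal, the spot read 141 in the control channel and 27.4 in the miR-29a channel, both well above background. Against the other treatments, TET2 was lower by a log2 difference of -2.24 ± 0.38 (SE; limma, adjusted p = 0.00666), and TDG, at -1.20 with an adjusted p of 0.446, did not pass. With cell line as a block, added after seeing the data, TET2 was at -1.88 and did not pass (adjusted p = 0.248). In the comparison without the block 1 of 7 members was lower and 0 higher, against 0.145% and 0.0512% of all probes.

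Other probes of TET2 differed in size. The probe at chr4:106193920-106193979 had a log2 ratio of -1.61 on the miR-29a array and again was the lowest of the 24. Over the 21 arrays of other treatments it had a median of -0.46 and a lowest of -1.15 (wogonin in SAS), with 17 below 0. The probe at chr4:106199618-106199677 stood at -0.34, seventh from the bottom, and neither of these passed the test. The dimmest, at chr4:106163842-106163901, was at -1.94 but there neither its Cy3 nor its Cy5 spot stood well above background. Averaged over its probes, TET2 was at -1.56 (adjusted p = 0.0212) against its own control and at -1.43 (adjusted p = 0.130) against the other treatments. The value was also smaller without the software's background subtraction: -1.07 with normexp and -1.27 with no correction, each with loess. Against own control TET2 kept an adjusted p under 0.05 in both settings (0.0144 and 0.0121), whereas against other treatments it did not (0.168 and 0.151).

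TDG, the glycosylase that removes oxidised methylcytosine and mismatched thymine, was measured by probes at chr12:104382442-104382501 and chr12:104381013-104381072 (hg19, plus strand). They gave -1.11 and -1.04 on the miR-29a array. Both values were the lowest of the 24 arrays, and the lowest among other treatments were -0.62 and -0.63. The share of all probes that were lowest on the miR-29a array was not counted. The correlation of the probes over the 24 arrays was 0.90 (Pearson's r, a description). The checks that follow all reuse the same miR-29a array. Leaving out another array changes only the pooled spread, so they cannot show whether the miR-29a value would repeat. On its own control the brighter probe kept an adjusted p under 0.05 in all 6 other processing settings, between 0.0075 and 0.0411, and when any other array was left out, up to 0.0424.

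**Figure D2:**
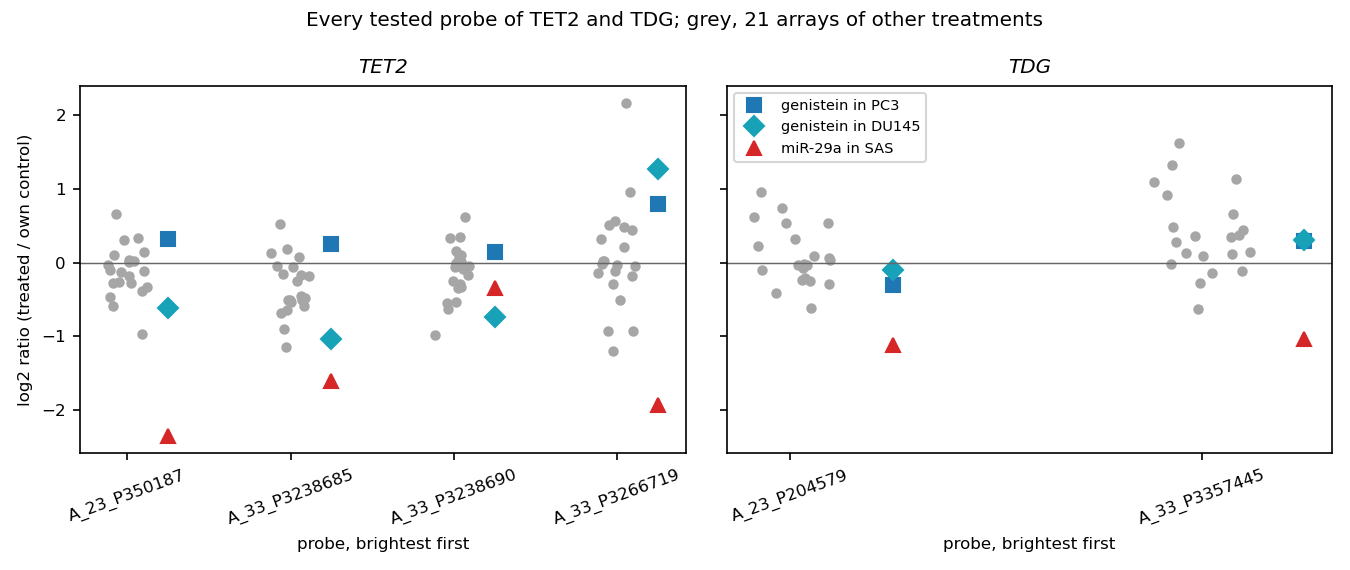
Log2 ratio of treated over own control (vertical axis) for each tested probe of TET2 (left) and TDG (right), brightest first; grey points are the 21 arrays of other treatments and coloured symbols genistein and miR-29a. The miR-29a triangle is the lowest point for all but the third TET2 probe, where it stands at -0.34.

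The de novo methyltransferases were not called on the miR-29a array. DNMT3B was at -0.93 ± 0.38 (SE; adjusted p = 0.243) and DNMT3A at -0.39 ± 0.37 (adjusted p = 0.712). The other DNMT3A probes on this array read -0.51 and 0.18. For DNMT3B, 3 of the 21 other arrays were lower than miR-29a, and for DNMT3A 2 of 21, so these values overlapped the other treatments. UHRF1 and DNMT1 overlapped them too, with 17 of the 21 lower than miR-29a for each. Over those 21 arrays their medians were 0.33 and 0.29, and only 5 and 1 arrays lay below 0. The 2 members that act with replication, UHRF1 at 0.93 and DNMT1 at 0.56, both lay above their own controls without passing (adjusted p = 0.637 and 0.536). TET1 was at -0.10 (adjusted p = 0.982).

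Transcripts known as miR-29 targets from other work, mostly of the extracellular matrix, were read beside the members. Like all gene lists here, this list was chosen with earlier results of these data known. Of 18 listed genes 14 were tested, 13 had a log2 ratio below 0 and 4 fell on the miR-29a array, against 1.26% of all genes. These were COL4A1 (a basement membrane collagen, -1.78), LAMC1 (a laminin chain, -1.71), ADAM12 (a metalloprotease, -1.98) and PPM1D (a phosphatase of the p53 pathway, -0.92), with adjusted p of 0.0139, 0.00921, 0.0258 and 0.0264. The median of the 14 was -1.67. Against the other treatments 1 of 14, COL4A1, was lower. With cell line as a block, added after seeing the data, COL4A1 was at -1.89 and did not pass. On arrays of the same slide only, it was at -2.23 and did not pass either. With si-LAMB3, 5 of the 14 were lower against own control, where 7.7% of all genes were. With the probes of a gene averaged, PPM1D and ADAM12 did not pass (adjusted p of 0.113 and 0.138). Larger values that did not pass were SPARC at -3.22 and COL5A2 at -3.18.

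None of the 7 tested members was called in the genistein arrays, either against own control or against the other treatments. Among all probes, 7.3% were lower and 8.75% higher than control, and against other treatments 3.28% were lower and 2.66% higher. By limma's p before adjustment, 2 members (TET1 and DNMT3B) were under 0.05 against own control and 1 (TET1) against the other treatments. The share of all probes under 0.05 before adjustment was not counted, so these counts cannot be called more than usual. The median of the members was -0.37, against 0.03 over all genes, and 6 of the 7 means lay below 0.

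TET1, a CXXC-domain dioxygenase, had the lowest mean. It was at -1.01 in PC3 and -1.28 in DU145, a mean of -1.14 ± 0.44 (SE; limma, adjusted p = 0.0972). It was the 1 member below -0.5 in both lines, where 6.94% of probes measured in both were so, and 0 members were above 0.5 in both, where 8.4% of probes were. The other treatments ran from -1.86 (wogonin in SAS) through a median of 0.05 to 1.16, and 1 of the 21 lay below both genistein values. The adjusted p was 0.0347 with normexp and loess and 0.0340 with loess alone, but the mean of the TET1 probes was -0.46 (adjusted p = 0.466). The dimmer probe at chr10:70454164-70454223, which the annotation of the first slide named as a lincRNA on chromosome 3 and the later annotation as TET1, read -0.66 in PC3 and 1.11 in DU145. The control RNA of the DU145 genistein array also stood apart. Its TET1 level was 1.46 on the log2 scale relative to the 75th percentile of the array, where the other 3 DU145 controls lay at -0.48, -0.57 and -0.62. The part of that control in the TET1 ratio was not tested.

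DNMT3B, which methylates new sites together with DNMT3A, was at -1.10 in PC3 and -0.50 in DU145 with genistein, a mean of -0.80 ± 0.27 (SE; adjusted p = 0.0591). The DU145 value, -0.496 before rounding, stood just outside the -0.5 limit. The call turned with the setting: the adjusted p was 0.0488 with each array centred on its median and 0.0344 over probes well above background in both channels of every array. DNMT3A was at -0.42 and -0.32, and TDG at -0.30 and -0.10. For these brightest probes both lines lay below 0, within the range of the other treatments. The other TDG probe read 0.29 in PC3 and 0.31 in DU145, and the other DNMT3A probes 0.04 and 0.16 in DU145.

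DNMT1, UHRF1 and TET2 went opposite ways in the genistein lines. UHRF1 was at -1.09 in PC3 and 0.32 in DU145, and its other probe gave -1.06 and 0.31. DNMT1 was at -0.48 and 0.50. In PC3 both genes were below every other array of the series, and in DU145 both lay among the other treatments. By the brightest probes the next lowest value was -0.43 for each, with miR-24 in PC3 for DNMT1 and miR-145 in PC3 for UHRF1. The share of all probes that were lowest on the genistein array of PC3 was not counted. TET2 had the other order, at 0.32 in PC3 and -0.61 in DU145. With 1 array per line, the difference between lines was not tested.

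**Figure D3:**
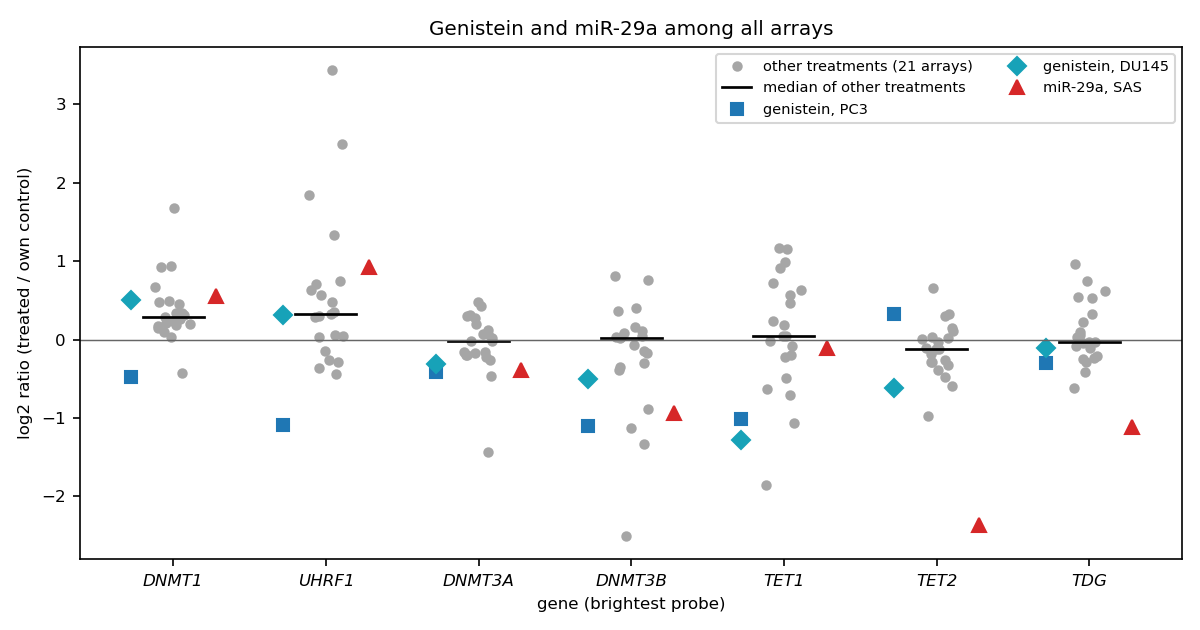
Log2 ratio of treated over own control for each tested gene, with the 21 arrays of other treatments in grey and their median as a bar, genistein in PC3 (square) and DU145 (diamond), and miR-29a in SAS (triangle). The triangle is below all grey points for TET2 and TDG, and the genistein PC3 square for DNMT1 and UHRF1. The share of all probes lowest on these arrays was not counted.

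Genes around the members in the same pathway were counted from lists of general knowledge, chosen with earlier results of these data known. Every list gene called with genistein against own control lost its call without at least 1 of the genistein arrays, with adjusted p between 0.0810 and 0.645 there. The calls of LIG1, MBD3, SMUG1, NEIL1, MAT2A and CDC6 were also lost without si-CAV2 in A498 or 786O, with adjusted p between 0.0507 and 0.0657, and some of them without further arrays. With genistein, 5 of 12 tested base excision repair and demethylation genes were called, 1 lower and 4 higher, where 7.68% of all genes were lower and 8.68% higher. GADD45A, a stress protein linked to DNA repair, rose to a mean of 2.29 (2.43 in PC3, 2.16 in DU145; adjusted p = 0.00764), and also stood above the other treatments (adjusted p = 0.00785, or 0.165 without the PC3 array and 0.0521 without the DU145 array). GADD45B (1.09), the glycosylases NEIL2 (1.07) and SMUG1 (0.47) were higher and the glycosylase NEIL1 lower (-1.03). NEIL2 was at 1.83 in PC3 and 0.31 in DU145 (adjusted p = 0.503 without PC3), and its mean was 0.29 with normexp and loess. No gene of that list was called on the miR-29a array, where 12 were tested and the largest values were NEIL1 at 0.59, PARP1 at 0.50 and GADD45A at 0.49.

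Of 12 tested genes of methyl donor and TET cofactor metabolism, 2 were lower and 1 higher with genistein. Over all probes 7.3% were lower and 8.75% higher. MAT2A, which makes the methyl donor S-adenosylmethionine, fell by 0.55 (adjusted p = 0.0360). SHMT2, of mitochondrial one-carbon metabolism, rose by 1.18 (adjusted p = 0.00404), with 1.66 in PC3 and 0.70 in DU145 (adjusted p = 0.106 without PC3). With miR-29a 0 of these 12 were called, with MTRR at 0.66 and IDH2 at -0.50.

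Among partners of maintenance methylation, LIG1, the ligase that joins newly made DNA fragments, fell with genistein (1 of 6 tested, mean -0.67, adjusted p = 0.0454), with -1.06 in PC3 and -0.27 in DU145. Among methyl-CpG readers, MBD3 of the NuRD complex fell (1 of 8, mean -0.61, adjusted p = 0.0346), with -0.13 and -1.09. Over all probes 7.3% were lower with genistein, so these single calls are not read as results about the lists. Neither list had a call with miR-29a. The largest values of the former were HELLS at 0.23, UHRF2 at 0.19 and LIG1 at 0.17, and in the latter ZBTB33 was at -0.49 and MBD4 at -0.38.

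Genes often silenced by promoter methylation were mostly too dim to read. Of 13 germline genes 3 were tested, and 0 were called with genistein (TKTL1 0.44, MAGEB2 0.42, SSX2 0.20) or miR-29a. Of 15 tumour suppressors 10 were tested. With genistein 1 of them was higher and 0 lower, where 8.75% of all probes were higher and 7.3% lower. The shares over all probes with miR-29a are those given above with TET2 and TDG. With miR-29a 1 was higher, the repair methyltransferase MGMT (1.11, adjusted p = 0.00843), and 0 were lower.

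DNMT1 and UHRF1 moved together across the arrays. Their log2 ratios had a Pearson's r of 0.86 over the 24 arrays, a description, since arrays share lines and some may share control RNA. It was 0.83 without the miR-23b, miR-24 and miR-27b arrays in PC3 and 0.77 without miR-375 in FaDu as well. The next closest pair of members was DNMT3A with TET1, at 0.71. Genes whose ratios were most like DNMT1 were PKMYT1, BCL2L12 and NDUFB10 (r of 0.89, 0.88 and 0.88), and most like UHRF1 were HNRNPA3, LMNB2 and KNSTRN (0.89, 0.87 and 0.86), among 14180 named genes. For DNMT3A these were FAM110A (0.85), KMT5C and ITM2C. For DNMT3B they were MYADM (0.87), KCNK6 and FCHO2. For TET1 they were TPTE (0.85), EMP2 and STON1. For TET2 they were EIF4E2 (0.79), CHIC2 and NCOA3. For TDG they were RMND5A (0.75), RBMS1 and KCNJ12.

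UHRF1 had the widest range of the members. It was at 3.43 with miR-27b in PC3, 2.49 with miR-375 in FaDu, 1.84 with miR-23b in PC3 and 1.34 with si-LAMB3 in FaDu, while the 21 other treatments had a median of 0.33. DNMT1 was at 1.68, 0.93, 0.92 and 0.46 on these arrays. UHRF1 passed for miR-375 (adjusted p = 0.0319, or 0.0533 with no filter on dim probes), where 12% of all probes were higher. It did not pass for miR-27b over its 3 lines (adjusted p = 0.117), nor did any other member there, with 0.99% of all probes lower and 0.487% higher. Before adjustment UHRF1, DNMT1 and TDG were under 0.05, a limit at which the share of all probes was not counted. In that treatment the A498 and 786O values were 0.63 and 0.57. The PC3 controls of miR-23b, miR-24 and miR-27b had the lowest UHRF1 levels of all 24 controls, from -0.22 to -0.08, where the other 4 PC3 controls lay between 1.94 and 3.17. Their DNMT1 levels were the lowest as well, from 0.68 to 0.78. The part of these controls in the ratios was not tested.

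Replication genes moved with UHRF1 on the miR-375 array. Of 14 S-phase genes such as PCNA and the MCM helicase subunits, 10 were higher there, with a median of 1.67, against 12% of probes. With genistein 1 of 14 was called, CDC6 (which loads the helicase), at 0.81, where 8.75% of all probes were higher. The median of the 14 was -0.28. The CDC6 value was 0.22 (adjusted p = 0.213) with normexp and loess and 0.33 (0.134) with loess alone, and the call was also lost with median centring and with no filter on dim probes. With miR-29a 0 of 14 were called, with a median of 0.22 and the largest values for GINS2 (-0.71), TYMS (0.59) and MCM3 (0.53).

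**Figure D4:**
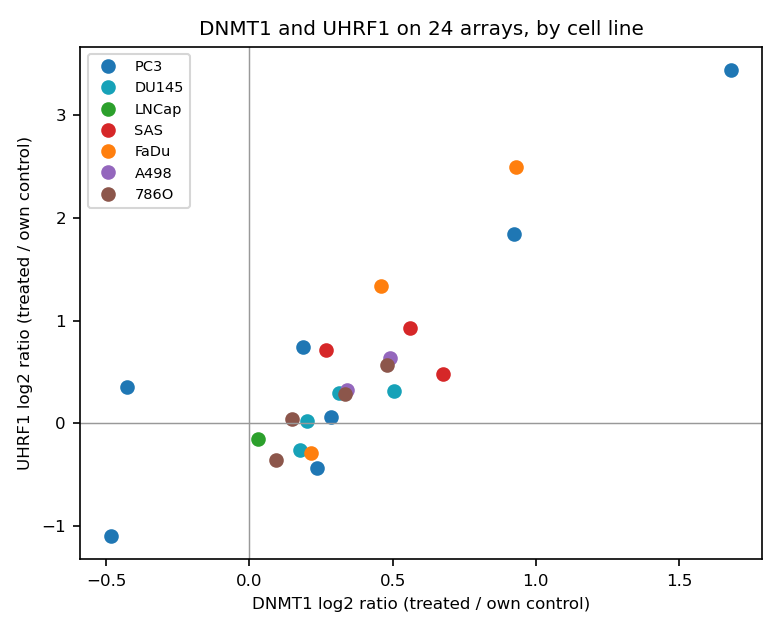
Log2 ratio of UHRF1 (vertical) against DNMT1 (horizontal), treated over own control, 1 point for each of the 24 arrays, coloured by cell line. Pearson's r is 0.86; miR-27b in PC3 is at the upper right (1.68, 3.43) and genistein in PC3 at the lower left (-0.48, -1.09).

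After the correlation of DNMT1 and UHRF1 had been seen, the members' promoters were searched for the E2F-type letters TTTCCCGC, TTTCGCGC, TTTGCCGC and TTTGGCGC on both strands, in RefSeq windows from 250 bases before to 50 after each start (GRCh38.p14). Among the 8 members, 2 genes, DNMT1 and UHRF1, held a match, and 3.99% of 27305 genes did. A gene can have several windows. By window, 3 of the members' 19 held a match, and 3.31% of 35116 windows did. Each pattern holds a CG pair, and the matching windows had 30 to 40 CG pairs, where the median over all windows was 14. Member windows without a match had 3 to 46. The part of CG content in the matches was not tested. The stretches below run from 190 bases before the start to 20 after it, 5′ to 3′, with the match in capitals.
DNMT1, chr19:10194934-10195143, minus strand: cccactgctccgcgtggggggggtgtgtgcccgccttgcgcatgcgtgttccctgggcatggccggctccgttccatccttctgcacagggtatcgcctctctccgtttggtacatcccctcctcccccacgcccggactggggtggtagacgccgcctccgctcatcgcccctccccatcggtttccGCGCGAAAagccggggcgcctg
UHRF1, first start, chr19:4909311-4909520, plus strand: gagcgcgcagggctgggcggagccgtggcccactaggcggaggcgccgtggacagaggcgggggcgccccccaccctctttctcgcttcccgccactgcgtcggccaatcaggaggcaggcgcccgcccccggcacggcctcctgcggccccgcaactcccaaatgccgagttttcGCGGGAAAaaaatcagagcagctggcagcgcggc
UHRF1, next start, chr19:4909954-4910163, plus strand: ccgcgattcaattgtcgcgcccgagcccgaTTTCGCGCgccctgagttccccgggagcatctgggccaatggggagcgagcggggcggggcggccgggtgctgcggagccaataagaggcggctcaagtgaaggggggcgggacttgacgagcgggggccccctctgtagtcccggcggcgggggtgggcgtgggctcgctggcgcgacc
The match began 2 bases before the start in DNMT1, and 14 and 160 bases before it in UHRF1. A match is a description of the letters and not a site.

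DNMT3B was called in other treatments. It fell with miR-375 in FaDu (-2.50, adjusted p = 0.000764), where 10.9% of all probes were lower, and with wogonin (-1.33 in SAS and -1.13 in FaDu, adjusted p = 0.0168), where 2.88% were lower and 5.12% higher. The wogonin call was lost without the SAS array (adjusted p = 0.186) and without the FaDu array (adjusted p = 0.0569). The FaDu control of the miR-375 array had a DNMT3B level of 2.52, where the other FaDu controls had 0.34 and 0.76, and the part of that control was not tested. Wogonin in SAS gave the lowest DNMT3A value of the series, -1.44, while FaDu was at 0.12. TET1 likewise was at -1.86 in SAS and 0.91 in FaDu, so the wogonin lines differed in direction for both genes and neither passed.

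TDG rose with si-LAMB3 (0.62 in SAS and 0.54 in FaDu, adjusted p = 0.0269), miR-23b in PC3 (0.96, adjusted p = 0.0366) and miR-24 in PC3 (0.75, adjusted p = 0.0233). The shares of all probes that were higher in these comparisons were 6.46%, 1.22% and 13.9%, and 7.42%, 1.55% and 13.5% were lower. The si-LAMB3 call did not hold without FaDu (adjusted p = 0.108) or without SAS (0.235), and the miR-23b call did not hold without si-CAV2 in A498 or 786O, si-GOLM1 in DU145 or PC3, or miR-27b in 786O, with adjusted p from 0.0522 to 0.0593. In all, 6 calls were made for 7 members over the treatments other than genistein and miR-29a. The share of all probes is given beside each of these calls. A share pooled over these treatments was not computed, so the total is not a result particular to the members. No member was called with miR-145 (6.2% of all probes lower and 5.27% higher), si-CAV2 (0.201% and 0.0213%), miR-143 (0.0213% and 0.00427%), si-GOLM1 (0.256% and 0.0811%), CXCL10 at 12 h (0.0427% and 0.00854%) or CXCL10 at 24 h (0.00427% each way), by limma, and none was under 0.05 before adjustment in these 6 comparisons. The share of all probes under 0.05 before adjustment was not counted there.

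In the control channels, the level of 4 members differed between cell lines, namely DNMT3A, DNMT3B, TET1 and TDG. So did 77.3% of all probes, so a difference between lines was the usual case. Levels are log2 control signal relative to each array's 75th percentile, given as mean ± SD over arrays, and cannot be set against those of another gene.

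TET1 was at 0.53 ± 1.13 in PC3 (n = 7), -0.05 ± 1.01 in DU145 (n = 4) and -0.12 ± 0.52 in SAS (n = 3), and at -3.02 ± 0.37 in FaDu (n = 3), -4.19 ± 1.13 in 786O (n = 4) and -5.20 ± 1.36 in A498 (n = 2), with LNCap at -2.19 (n = 1). By this probe, the brightest, the step from SAS to FaDu passed (adjusted p = 0.00840) while no other step between neighbouring lines with over 1 array did. By the dimmer TET1 probe, whose annotation differed between slides, SAS and FaDu did not pass (adjusted p = 0.510), and DU145 lay at -3.84, below FaDu at -3.58 and below PC3 (adjusted p = 0.00213). Spots were not well above background in 1 A498 and 1 786O control, so these means are partly bounds. 

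DNMT3A was lowest in 786O, at -2.47 ± 0.21 (n = 4), and the next line, FaDu, was at -0.92 ± 0.43 (n = 3; adjusted p of the step 3.1e-05). The others ran from -0.79 in SAS and -0.77 in A498 through -0.34 in PC3 and -0.26 in DU145 to 0.02 in LNCap, and no other step between neighbours passed. Of the other DNMT3A probes, the one at chr2:25456415-25456474 also had 786O below FaDu (adjusted p = 2.3e-07), and the one at chr2:25504394-25504453 did not pass there (0.194). By the former A498, at -1.92, also lay below FaDu (limma, adjusted p = 0.00308), with 786O lower still at -2.96. By the latter A498 stood at -4.82 beside 786O at -4.86, and not every spot of these lines was well above background. For DNMT3B the order was A498 (1.35 ± 0.40), FaDu (1.20 ± 1.16), SAS (0.70), 786O (0.25), PC3 (-0.13), LNCap (-0.24) and DU145 (-0.88 ± 0.50), again with no step between neighbours that passed. For the brighter TDG probe it was FaDu and LNCap (3.64 each), SAS (3.37), 786O (3.09), PC3 (2.96), DU145 (2.72) and A498 (2.37 ± 0.13), with no step between neighbours that passed. By the dimmer TDG probe, 786O lay above FaDu and SAS, and DU145 above PC3. There the last step, from PC3 to A498, passed (A498 minus PC3 -0.74, limma, adjusted p = 0.0114).

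DNMT1 and UHRF1 did not pass between lines (adjusted p = 0.326 and 0.349), and their spread within PC3 was wide, with an SD of 0.97 and 1.46. TET2 ran from -0.56 in LNCap and -0.72 in FaDu to -1.87 in DU145 and did not pass (adjusted p = 0.123). The controls of miR-23b, miR-24 and miR-27b in PC3 correlated at 0.989 to 0.990, more than any other pair, and the labels do not say whether they are the same RNA. Counted as 1 control, a choice made after seeing the data, TET2 passed (adjusted p = 0.0396) and the calls of the other 6 were as before.

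**Figure D5:**
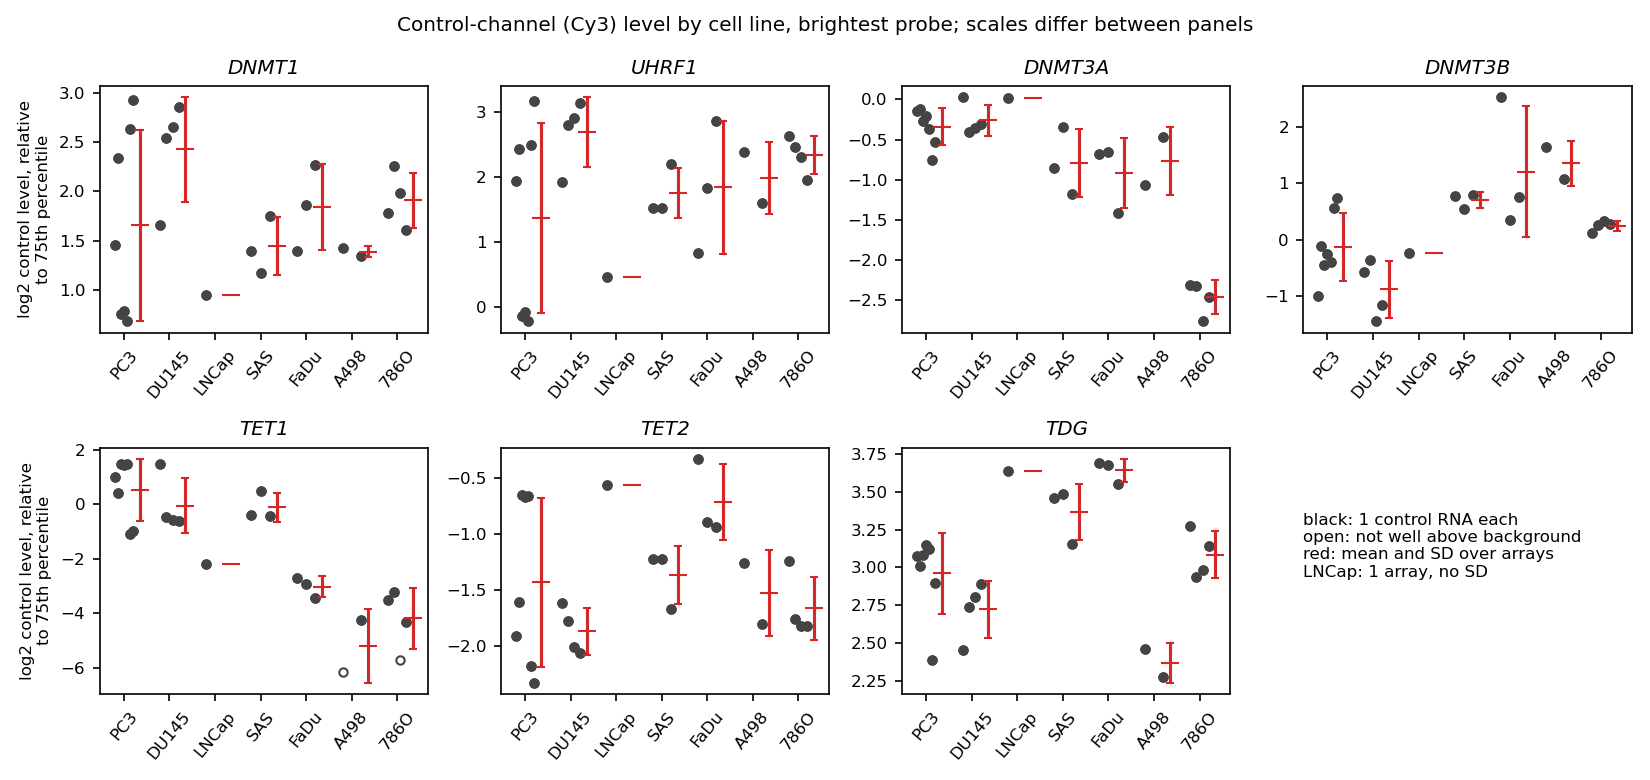
Log2 control-channel level relative to the 75th percentile of the array (vertical axis, scales differ between panels) in each cell line, 1 point per control RNA, with mean and SD in red and open points for spots not well above background. The brightest TET1 probe has PC3, DU145 and SAS at means of 0.53 to -0.12 and FaDu, 786O and A498 at -3.02 to -5.20, and DNMT3A is lowest in 786O, at -2.47.

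TET3, the third dioxygenase of the family, could not be read. Its probes at chr2:74329639-74329698 and chr2:74328560-74328619 were not well above background in any of the 24 control channels, and in 1 treated channel only for the former. Likewise 1 DNMT3B probe (chr20:31384813-31384872) was not well above background on any array. This describes these probes and not the absence of the transcripts.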

How the data were processed

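Total RNA was labelled by the study with Cy3 (control) and Cy5 (treated) and hybridised on Agilent two-colour arrays without dye swap, so a dye effect does not cancel. Scanner files had been made by the authors with Agilent Feature Extraction (version 10.7.3.1 in the submitters' processing notes) and hold background-subtracted, dye-normalized intensity per channel and a log10 ratio of Cy5 over Cy3. The deposited value table holds the same log10 ratios (largest difference 0), and its scale and direction are therefore those of the scanner files. Deposited 0 or 1 flags (unit other) mark outliers and spots well above background. Probe positions are those of the files (hg19).

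Log10 ratios were converted to log2, control spots were left out (58717 others remained per array), 419 to 614 outlier spots per array were removed, and spots of a probe were averaged. Probes on both designs (35649) that were well above background in a channel on at least 12 of 24 arrays were fitted with limma 3.58.1 in R 4.3.3 (lmFit, eBayes) and adjusted by Benjamini-Hochberg over all probes. Treatment means were tested against 0, and genistein and miR-29a against all other treatments in a 3-group model. Control levels were tested over lines with a moderated F test. The scripts were tested on simulated data. Summaries and figures used Python 3.11.15, pandas 2.3.3 and matplotlib 3.10.9. A gene was represented by its brightest probe. Named genes were the members, list genes past an adjusted p of 0.05 (otherwise the 3 with the largest change) and the 3 genes most correlated with each member; where other genes are named, they were chosen after their values were seen. RefSeq symbols were matched by accession for 28174 of 57355 probes. Alternatives covered background correction (normexp, which models background and signal together, or none, each with loess dye normalization), centring, dim-probe filters, probe averaging, slide, cell line and leaving out each array. Some genes of the lists are counted but not reported here by name. The members and gene lists were chosen with earlier results of these data known. The number of arrays limits the precision, and no condition was replicated.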

Additional observations from a re-analysis of the deposited data

Results flagged for a closer look

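The control levels of 7 members in the 3 lines with 4 or more arrays gave 21 groups, of which 3 held a control far from the rest; about 1 in 20 groups does so by chance. The TET1 level of the genistein control in DU145 was 1.46, where the next was -0.48. The TDG level of the miR-143 control in PC3 was 2.38, with the next at 2.90. The TET2 level of the si-CAV2 control in 786O was -1.25, with the next at -1.76.

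With genistein, 3 members had opposite signs in PC3 and DU145, a difference that was not tested. The log2 ratio in DU145 minus that in PC3 was 0.99 for DNMT1, 1.41 for UHRF1 and -0.93 for TET2.

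Outside the tested probes, a TET1 probe (A_23_P322756) was well above background in 7 treated and 6 control channels of 24, and a TET3 probe (A_33_P3235177) in 1 treated and 0 control channels.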

How the results depend on the processing

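With miR-29a, TET2 and TDG were called against own control under all 6 other settings and without any other array. All of these reuse the same miR-29a array, so they cannot show whether its values would repeat. Members called with genistein against own control went from 0 to 1 with normexp and loess, loess alone, median centring and the both-channel filter, and ranged from 0 to 1 as single arrays were left out (miR-145 in PC3 or LNCap, either wogonin array or miR-27b in PC3). Members called with miR-29a against other treatments went from 1 to 0 with normexp and loess, loess alone, the mean of probes, cell line as a block and the same slide only. The cause was not tested, except that the same slide holds fewer arrays. Calls over all probes for genistein against own control were 3759, and 1577 to 4145 with an array left out (lowest without genistein in PC3). Against other treatments genistein gave 1393, then 2223 with loess alone, 7 on the same slide and 147 to 1900 with an array left out (147 without genistein in PC3). For miR-29a against own control 468 probes were called, then 792 with no filter, 302 with the mean of probes and 279 to 603 with an array left out (279 without si-CAV2 in A498 or 786O). Against other treatments 46 were called, then 268 with no filter, 24 with the mean of probes, 26 with cell line as a block, 0 on the same slide and 37 to 97 with an array left out (most without miR-375 in FaDu or miR-24 in PC3). By size, members above the limit with miR-29a went from 2 to 0 at a limit of 1 and to 1 with normexp, and members below it with genistein from 1 to 0 with the mean of probes. Values that changed sign had not been called. DNMT1 with genistein went to -0.028 with median centring, and with the mean of probes genistein gave 0.048 for TET2 and TDG each against own control and 0.18 for TET2 against other treatments. UHRF1 with miR-29a against other treatments went to -0.19 with slide as a block and on the same slide, and with cell line as a block (chosen after seeing the data) DNMT3A went to 0.43 and TET1 to 1.35. With that block 0 members were called with genistein against other treatments, as without it. Leaving out an array gave genistein ranges of -0.48 to 0.50 (DNMT1), -1.09 to 0.32 (UHRF1) and -0.61 to 0.32 (TET2), and against other treatments -0.86 to 0.12 (DNMT1) and -0.49 to 0.44 (TET2). Control-level calls kept their count within 1.5 times in each setting. No paired analysis was possible because the labels carry no replicate numbers, beyond the pairing of treated and control RNA on each array and the blocks by slide and cell line. Signal over background limits TET3 and the dim TET1, TET2 and DNMT3B probes.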
